A study of Homo sapiens with 14 samples.

Results

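The 9 CXC chemokine genes CXCL1, CXCL2, CXCL3, CXCL5, CXCL6, CXCL8, CXCL12, CXCL14 and CXCL16 were followed through poly(A)-selected RNA of IMR90 cells, which are primary human fetal lung fibroblasts. They were taken by symbol, or by transcript in the old and young tables, all 9 were found in each of the 3 kinds of deposited table, and they are 9 of the 54628 gene symbols in the largest of these tables. The samples fell into 7 groups. Young cells (proliferating, at low passage) and old cells (brought to replicative senescence by passaging) came from isolates I79 and I10. Each of these groups had 1 column here, taken as pooled over its 2 listed replicates, which the labels do not state. I79 ICM was 2 libraries of isolate I79 given inflachromene (ICM), a compound known to bind HMGB1 and HMGB2, which are chromatin proteins. WT and HMGB2 KD were 2 libraries each of wild-type cells and of cells in which HMGB2 had been knocked down with siRNA. The labels name no genotype change or drug for the old and young groups, and neither an isolate nor a control siRNA for WT. The methods describe independently grown replicas for cells sent to ribosome profiling and its matched RNA. For WT and HMGB2 KD nothing says that the replicates came from separate cultures, so their p-values measure only the spread between these samples, which may be technical.

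CXC chemokines are small secreted proteins that attract leukocytes through receptors coupled to G proteins. CXCL1, CXCL2, CXCL3, CXCL5, CXCL6 and CXCL8 carry the ELR motif, act through CXCR1 and CXCR2 and draw neutrophils. IL-1 and TNF switch these genes on through NF-kB, and fibroblasts that reach senescence are known for secreting several of them. CXCL12 lacks the motif, is made steadily by stromal cells, signals through CXCR4 and is scavenged by ACKR3. CXCL14 is an ELR-negative chemokine of epithelia and some fibroblasts, and CXCL16 is a membrane-bound chemokine, shed by ADAM10, that binds CXCR6.

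The ELR members lie together on chromosome 4. On GRCh37 the genes run from CXCL8 (74606236 to 74609433, plus strand) through CXCL6 (74702357 to 74714781, plus), CXCL1 (74735110 to 74737025, plus), CXCL5 (74861359 to 74864394, minus) and CXCL3 (74902306 to 74904524, minus) to CXCL2 (74962757 to 74964913, minus), a span of 359 kb. CXCL12 is on chromosome 10 (44865613 to 44881941, minus), CXCL14 on chromosome 5 (134906369 to 134914969, minus) and CXCL16 on chromosome 17 (4636828 to 4643223, minus). RefSeq promoter windows (GRCh38.p14, from 250 bases before to 50 after the start) were matched for 8 of the 9 genes, without CXCL16. In all 6 ELR genes the window held GGAATTTCC, a kB-type run of letters that was chosen after the windows had been seen and searched on both strands. The run was absent from the windows of CXCL12 and CXCL14, and it occurred in 0.461% of all 35116 windows of that length. The 40 bases around it, all before the start, are shown because the results turn on these genes, with the shared run in capitals:
CXCL1: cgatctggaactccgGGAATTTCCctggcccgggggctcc
CXCL2: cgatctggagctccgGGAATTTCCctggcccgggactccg
CXCL3: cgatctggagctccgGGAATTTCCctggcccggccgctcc
CXCL5: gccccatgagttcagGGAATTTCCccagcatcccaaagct
CXCL6: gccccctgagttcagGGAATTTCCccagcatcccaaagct
CXCL8: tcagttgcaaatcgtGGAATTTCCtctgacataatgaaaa
Each is given 5′ to 3′ on the gene's strand, at chr4:73869300-73869339 for CXCL1, chr4:74099248-74099287 for CXCL2, chr4:74038743-74038782 for CXCL3, chr4:73998743-73998782 for CXCL5, chr4:73836574-73836613 for CXCL6 and chr4:73740463-73740502 for CXCL8. The run ended between 68 bases (CXCL2) and 82 bases (CXCL8) before the start. Flanks were alike within 2 sets, CXCL1 with CXCL2 and CXCL3, and CXCL5 with CXCL6, while those of CXCL8 resembled neither. The longer NF-kB consensus, which overlaps the run where a further G precedes it, was present in the windows of 5 of the 8 genes (not CXCL8, CXCL12 or CXCL14) and in 11.3% of all windows. Of 14 other chemokine genes with a window, 2 held the run, CXCL10 and CXCL11.

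WT and HMGB2 KD libraries held 33561766 to 41168932 counts, each old or young column 14991385 to 20632959 estimated counts, and the 2 libraries of ICM 13290131 and 10971132 reads. All 9 fibroblast markers were detected in every column, with a summed level of 12259 to 33802 CPM (counts scaled to library size). The summed levels of the epithelial and leukocyte markers were at most 0.957 and 0.527 CPM, and the T-cell marker CD3E was at 0 throughout. The endothelial markers summed to 0.365 to 9.86 CPM. Of the state markers, the proliferation antigen MKI67 fell 6.06-fold from young to old (adjusted p 0.0063, edgeR), and the cell cycle inhibitor CDKN1A rose 5.59-fold (adjusted p 0.0042). HMGB2, HMGB1 and the lamin LMNB1 also fell, so 4 of the 5 state markers fell and 1 rose. In the knockdown comparison 1 of the 5 was called, HMGB2 itself, with 27.1 and 27.3 CPM in the WT libraries against 3.22 and 3.64 CPM after knockdown.

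The make-up of the CXC chemokine transcripts differed between the kinds of sample. In bulk RNA, fewer cells that express a gene and less RNA per cell cannot be told apart. On a length-scaled scale (TPM, or counts per kilobase scaled to the same total), which allows levels of different genes to be set side by side, CXCL12 made up 90.8% of the 9 genes' summed level in I79 young and 93.6% in I10 young. In WT it was CXCL8, with 73.5% and 70.9% in the 2 libraries, and CXCL12 held 0.431% and 1.20%. The HMGB2 KD libraries had shares close to those of WT, with CXCL8 at 73.7% and 70.0%. I79 old was split between CXCL12 (49.3%) and CXCL8 (39.7%), whereas in I10 old CXCL12 still made up 87.3%. In the ICM libraries 3 genes shared the level: CXCL12 with 38.8% and 35.4%, CXCL8 with 29.2% and 24.4%, and CXCL3 with 16.7% and 21.9%.

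**Figure D1:**
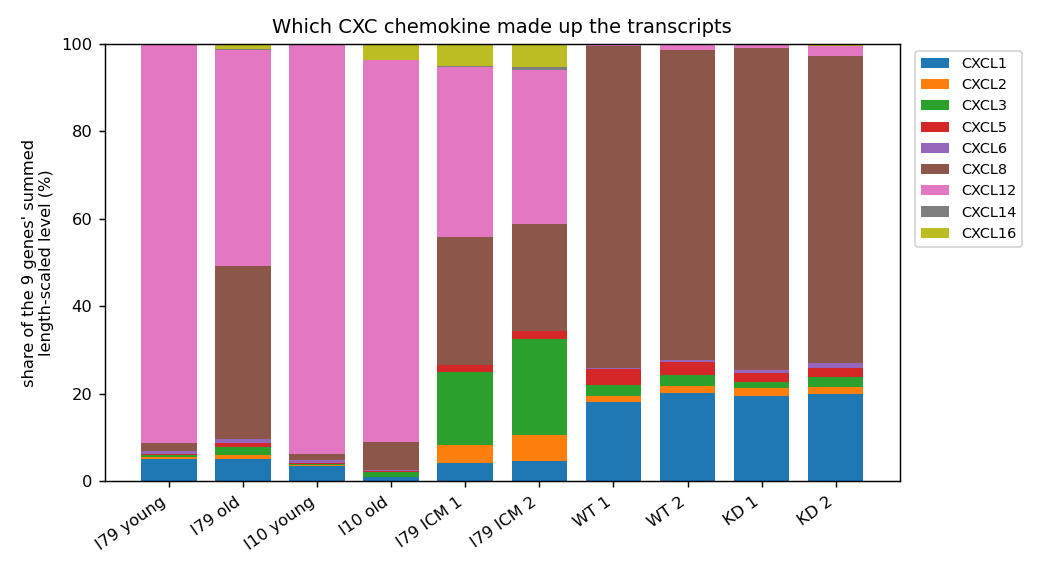
Share of the 9 CXC chemokines' summed length-scaled level (y axis, %) in each of the 10 columns (x axis; ICM, WT and KD have 2 libraries each), with 1 colour per gene. CXCL12 fills most of the bar in both young columns and I10 old, CXCL8 most of it in the WT and KD libraries, and CXCL12, CXCL8 and CXCL3 share the ICM bars.

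The summed level behind these shares also varied. It was 369 in I79 young and 442 in I10 young, 46.5 in I79 old and 33.7 in I10 old, 65.4 and 82.4 in the ICM libraries, 2942 and 1367 in WT, and 1529 and 484 in HMGB2 KD. The WT libraries held more CXC chemokine transcript than either young column, on tables that had been counted in different ways and with no isolate given for WT. The state markers differed between these columns too: MKI67 was at 32.1 and 37.8 CPM in WT against 194 and 228 CPM in I79 and I10 young, HMGB2 at 27.1 and 27.3 against 122 and 141, LMNB1 at 20.97 and 19.4 against 73.9 and 84.1, and CDKN1A at 1163 and 1196 against 354 and 341. Their part in the chemokine levels was not tested.

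Within WT, levels on the length-scaled scale ran from CXCL8 (1566 ± 844, SD, n = 2) and CXCL1 (406 ± 185) through CXCL5 (74.9 ± 46.4), CXCL3 (53.0 ± 26.4) and CXCL2 (30.8 ± 10.8) to CXCL12 (14.6 ± 2.66), CXCL6 (6.49 ± 3.29) and CXCL16 (2.76 ± 0.035). Neighbours CXCL5 and CXCL3, and CXCL3 and CXCL2, overlapped between the libraries. Within each library the order was the same, at 107.7, 71.7 and 38.5 for CXCL5, CXCL3 and CXCL2 in replicate 1 and 42.1, 34.4 and 23.2 in replicate 2. CXCL8 ranked 54th and 149th among all genes by this scale in the 2 WT libraries. In the young columns CXCL12 ranked 369th in I79 and 305th in I10. CXCL14 was the lowest in WT, at 0.033 ± 0.00068, which is 1 count per library. In the ICM libraries the order began with CXCL12 (27.3 ± 2.67), CXCL8 (19.6 ± 0.675) and CXCL3 (14.5 ± 5.01), whose libraries did not overlap. CXCL16 (3.81 ± 0.662), CXCL2 (3.79 ± 1.49) and CXCL1 (3.31 ± 0.855) overlapped with each other.

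Which chemokine transcripts change when HMGB2 is depleted was asked with the WT and HMGB2 KD libraries. Of the 8 members tested, CXCL3 and CXCL5 fell, and none rose. Calls required a log2 fold change past 0.6 in either direction and an adjusted p below 0.01 (edgeR's quasi-likelihood test, Benjamini-Hochberg over 15338 genes). That makes 2 of 8 members lower, against 2.34% of all genes tested (359), and 0 higher, against 2.86% (438). With counts scaled to plain library totals, 385 genes were called higher and 484 lower. At an unadjusted p under 0.05, 5 members were lower and 0 higher, against 3662 of all genes in either direction. DESeq2 called 0 members, and 944 genes in all (535 higher, 409 lower). The median log2 fold change was -0.98 over the 8 members and 0.00 over all genes tested.

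CXCL5, a neutrophil attractant also called ENA-78, had 136 and 50.3 CPM in the WT libraries and 36.1 and 12.4 CPM in the HMGB2 KD libraries. Both knockdown libraries lay below both WT libraries. The means were 93.3 ± 60.8 CPM and 24.2 ± 16.7 CPM (SD, n = 2), and edgeR put the log2 fold change at -1.95 (SE 0.42, adjusted p 0.0087). CXCL3, a chemokine close in sequence to CXCL1 and CXCL2, had 41.8 and 18.9 CPM in the WT libraries, and 13.7 and 6.47 CPM in those of HMGB2 KD. Its groups did not overlap either, and its log2 fold change was -1.59 (SE 0.33; edgeR adjusted p 0.0068). Both calls rested on HMGB2 KD replicate 2: without it the log2 fold changes were -1.37 for CXCL5 and -1.15 for CXCL3, with adjusted p-values of 0.089 and 0.088, and 0 of the 8 members were called. Without WT replicate 2, and likewise without HMGB2 KD replicate 1, 5 were called (CXCL1, CXCL2 and CXCL8 in addition). Without WT replicate 1 both calls stood, but the log2 fold changes shrank to -1.06 for CXCL5 and -0.91 for CXCL3.

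CXCL8 (interleukin 8) was the most abundant member in these libraries, with 1724 and 729.8 CPM in WT, against 875 and 268 CPM in HMGB2 KD. CXCL1 had 288 and 139 CPM in WT, against 157 and 51.5 CPM in HMGB2 KD. CXCL2 had 19.9 and 11.3 CPM, then 12.5 and 4.09 CPM. In all 3 the higher knockdown library lay above the lower WT library, so the groups overlapped. Their log2 fold changes were -1.10 for CXCL8, -1.04 for CXCL1 and -0.91 for CXCL2, with adjusted p-values by edgeR of 0.12, 0.11 and 0.14. With 1 library left out at a time these ranged from -2.21 to -0.36 for CXCL8, from -2.07 to -0.42 for CXCL1 and from -1.94 to -0.31 for CXCL2.

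CXCL12 had 13.7 and 16.8 CPM in WT, against 11.8 and 12.4 CPM in HMGB2 KD, a log2 fold change of -0.34 (adjusted p 0.22 by edgeR). CXCL16 had 2.54 and 2.36 CPM, then 1.94 and 1.66 CPM (-0.45, adjusted p 0.45). For both, the groups lay apart but the difference missed the threshold. CXCL6, an ELR chemokine known as GCP-2, had 7.27 and 3.24 CPM in WT, against 7.87 and 4.56 CPM in HMGB2 KD (0.24, adjusted p 0.73), the 1 tested member with a positive value. Libraries of WT and HMGB2 KD did not overlap for 4 of the 8 members (CXCL3, CXCL5, CXCL12 and CXCL16), against 53.8% of all genes tested. CXCL14 did not pass the filter on low counts. It had 1 count in each WT library and 10 and 17 in the HMGB2 KD libraries, a ratio of 12.6 over the summed counts (exact 95% interval 3.17 to 110, counting error only). CXCL14 shares its locus with SLC25A48 on the other strand, and whether strand was used in counting is not stated. The same holds for CXCL16, which overlaps MED11 and ZMYND15, and for CXCL5, which overlaps a long noncoding RNA gene on the other strand. CXCL6 overlaps the pseudogene PPBPP1 on its own strand.

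**Figure D2:**
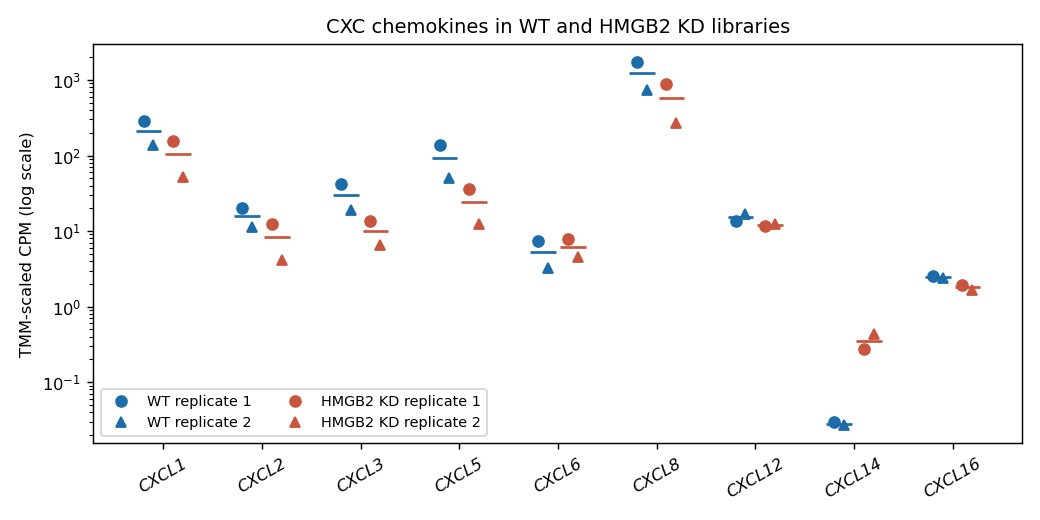
TMM-scaled CPM (y axis, log scale) of the 9 CXC chemokines (x axis) in the 2 WT libraries (blue) and the 2 HMGB2 KD libraries (red), with circles for replicate 1, triangles for replicate 2 and a line at each group's mean. Both knockdown libraries lie below both WT libraries for CXCL3 and CXCL5, the groups overlap for CXCL1, CXCL2, CXCL6 and CXCL8, and replicate 1 is above replicate 2 in both groups for the genes of the chromosome 4 cluster.

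The cluster genes also differed between replicates of 1 group. In WT, replicate 1 exceeded replicate 2 by between 1.76-fold (CXCL2) and 2.71-fold (CXCL5) over the 6 cluster genes. In HMGB2 KD the same ratio ran from 1.72 (CXCL6) to 3.27 (CXCL8). CXCL12 and CXCL16, which lie elsewhere, had ratios of 0.816 and 1.08 in WT and 0.954 and 1.17 in HMGB2 KD. Over all genes tested the median ratio was 0.993 in WT and 1.00 in HMGB2 KD, and 6.63% and 7.91% of genes had a ratio over 1.5. The difference was not limited to the cluster. Replicate 1 was also above replicate 2 for MMP3 (302.7 and 122 CPM in WT, 86.5 and 29.4 in HMGB2 KD), IL1B (281 and 157, then 135 and 56.9), IL6 (495 and 281, then 394 and 169.9) and CCL20 (16.2 and 8.12, then 3.63 and 0.552), which were named here after their values were seen. Taken number by number, WT over KD was 1.97 and 2.73 for CXCL8, 1.84 and 2.71 for CXCL1, and 1.59 and 2.77 for CXCL2, and it was 3.06 and 2.93 for CXCL3 and 3.78 and 4.06 for CXCL5. The labels do not say that equal numbers mark cells handled together.

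**Figure D3:**
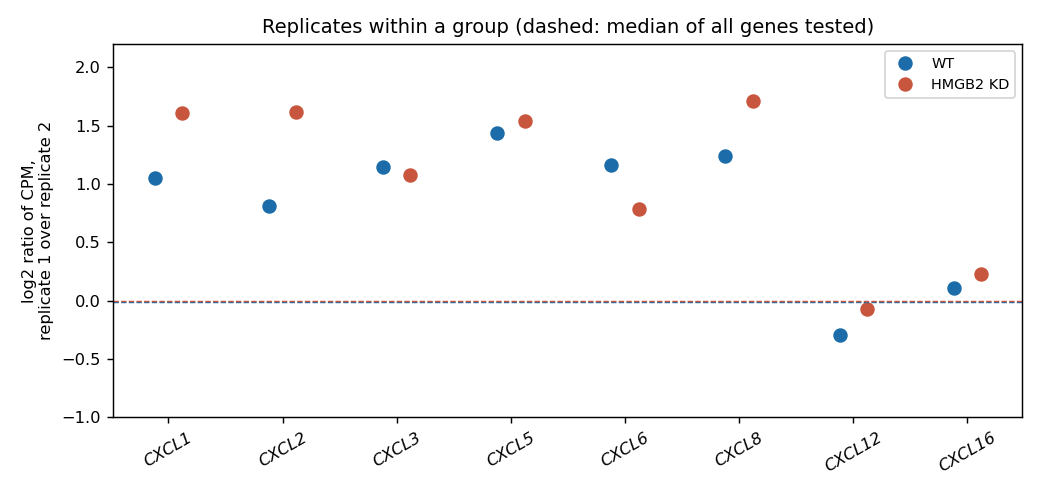
Log2 ratio of CPM in replicate 1 over replicate 2 (y axis) for the 8 tested CXC chemokines (x axis) in WT (blue) and HMGB2 KD (red), with dashed lines at the median of all genes tested. All 6 chromosome 4 genes lie above the lines in both groups, from 1.72-fold to 3.27-fold, while CXCL12 and CXCL16 lie near 0.

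Parts of CXCL1, CXCL2 and CXCL3 are identical. Of the 50-base windows of their main transcripts, 5.33%, 10.1% and 5.26% also occur in another of these genes, so some reads could be split among them. No window was shared for CXCL6, CXCL8, CXCL12 or CXCL14. The other annotated genes within 200 kb of the cluster were mostly below the filter: of 21, 2 were tested after knockdown, PF4V1 (log2 fold change -0.11, adjusted p 0.94) and MTHFD2L (-0.38, adjusted p 0.28). In old against young 1 was tested, MTHFD2L (-1.02, adjusted p 0.034 by edgeR), and it was not called.

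Whether the chemokines change with replicative senescence was asked with the old and young columns of both isolates, which served as the replicates (edgeR with isolate as a covariate, 1 residual degree of freedom). CXCL12 and CXCL6 fell, and no member rose. That is 2 of 8 members lower, against 3.82% of 15116 genes (578), and 0 higher, against 5.75% (869). CXCL6 passed the filter on low counts through the young columns alone, and so did CXCL2 and CXCL5. For these genes being tested already implied a lower level in old. The counts of members lower and the median over members thus partly follow from the filter. At an unadjusted p under 0.05, 3 of the 8 members were lower and 0 higher, against 6857 of all 15116 genes in either direction, so that count does not set the members apart. Scaling by library totals gave 1019 genes higher and 2111 lower and moved the median of all genes from -0.01 to -0.22 on the log2 scale. DESeq2 called 3 members lower (the 2 and CXCL1) and 0 higher. The median log2 fold change was -1.77 over the 8 members.

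CXCL12, the stromal ligand of CXCR4, had 6473 counts in I79 young and 545 in I79 old, or 414 and 29.6 CPM. In I10 it had 9477 and 756 counts, or 494 and 41.8 CPM. Young exceeded old 14.0-fold in I79 (exact 95% counting interval 12.8 to 15.3) and 11.8-fold in I10 (10.99 to 12.8). Over both isolates it fell by 3.69 on the log2 scale (SE 0.13; edgeR adjusted p 0.0032). The 2 main transcripts both went down: CXCL12-201 (1857 bases) from 3428 to 367 estimated counts (I79) and from 4943 to 450.4 (I10), and CXCL12-203 (3532 bases) from 2952 to 171 and from 4359 to 299. The share of CXCL12-201 in the gene's counts was 53.0% and 52.2% in the young columns and 67.3% and 59.6% in the old ones.

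CXCL6 was low in the young columns and at 3 counts or fewer in the old ones. It had 42 counts in I79 young and 3 in I79 old, and 55 and 1 in I10. Young exceeded old 16.5-fold in I79 (5.28 to 83.3) and 51.9-fold in I10 (8.94 to 2087), and edgeR gave -4.59 on the log2 scale (SE 0.59, adjusted p 0.0087). With length-scaled counts it lost its call (-3.52, adjusted p 0.032), where 1.70 of the 3 reads in I79 old were assigned to a transcript of 557 bases. CXCL1, also called GRO-alpha, had 168 counts in I79 young and 27 in I79 old, and 163 and 4 in I10. Its log2 fold change of -3.66 (SE 0.54) missed the threshold at an adjusted p of 0.012 by edgeR, and it was called with DESeq2 size factors (0.0088). Young exceeded old 7.34-fold in I79 (4.87 to 11.5) and 38.5-fold in I10 (14.7 to 143).

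CXCL8 went in opposite directions in the isolates. It had 85 counts in I79 young and 341 in I79 old, 3.40-fold higher in old (2.67 to 4.36), and 96 counts in I10 young and 43 in I10 old, 2.11-fold lower in old (1.46 to 3.09). Over both isolates it had a log2 fold change of 0.48 (adjusted p 0.62 by edgeR). CXCL8 was the 1 member of 8 past 0.6 on the log2 scale in opposite directions, against 1.05% of all genes.

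The remaining members had few counts. CXCL2 had 14 and 6 counts in I79 young and old, and 11 and 0 in I10, where the limit of 3 counts makes it at least 3.46-fold lower. CXCL5 had 14 and 10 in I79, and 10 and 2 in I10. CXCL3 had 14 and 12, then 10 and 6. CXCL16 had 20.5 and 14.1 estimated counts in I79 and 18.3 and 15 in I10, and CXCL14 had 3 or fewer in every column. Apart from CXCL14, which was not tested, these 4 genes had log2 fold changes between -2.31 (CXCL2, adjusted p 0.13) and -0.50 (CXCL16, adjusted p 0.44) by edgeR and none was called. For CXCL3 and CXCL16 the counting interval of the ratio spanned 1 in both isolates, and for CXCL2 and CXCL5 it spanned 1 in I79.

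**Figure D4:**
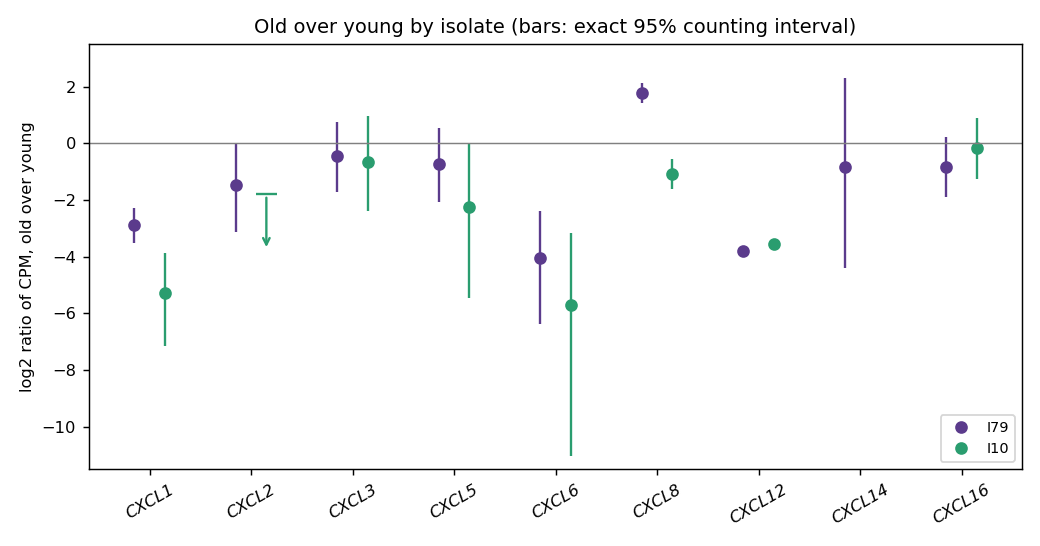
Log2 ratio of CPM, old over young (y axis), for each CXC chemokine (x axis) in isolates I79 (purple) and I10 (green), with bars for the exact 95% counting interval and an arrow from the 3-count limit where the old column was at 0 (CXCL2 in I10; CXCL14 in I10, 2 and 0 counts, has no point). CXCL1, CXCL6 and CXCL12 lie below 0 in both isolates, and CXCL8 lies above 0 in I79 and below 0 in I10.

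By isolate, with no replicate, 6 of the 8 tested members were past 0.6 on the log2 scale in the lower direction in I79, against 19.6% of all genes, and 1 in the higher direction (CXCL8), against 21.6%. In I10 it was again 6 lower, against 18.8%, and 0 higher, against 18.5%. CXCL2, CXCL5 and CXCL6 were among the lower members in both isolates. They were tested through the young columns alone, so these counts partly follow from the filter. The sets of lower members were not the same: CXCL16 was among them in I79 (-0.70) and not in I10 (-0.18), and CXCL8 was among them in I10 (-1.04). Between the young columns, I10 over I79, the log2 ratio of CPM over shared genes ran from -0.69 (CXCL3 and CXCL5, at 14 against 10 counts each) to 0.27 (CXCL12), with CXCL8 at -0.11 and CXCL1 at -0.32.

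The ICM libraries were set against the I79 columns on CPM over 24638 genes listed in all 3 kinds of table. These tables had been counted in different ways, and whether the libraries were prepared and sequenced alike is not stated. No group labelled as a vehicle control is among the samples. The ratios thus hold any such differences as well as the treatment, and no test was run. CXCL12 had 408 and 389 reads in the 2 ICM libraries and was 13.8-fold below I79 young and 1.14-fold above I79 old. CXCL1 had 21.5 and 25.8 reads, 5.78-fold below I79 young and 1.36-fold above I79 old. CXCL6 had 0.5 and 0 reads, under the limit of 3 counts, which puts it at least 10.9-fold below I79 young. CXCL8 had 226 and 197 reads, 2.88-fold above I79 young and 1.04-fold below I79 old. With reads of all transcript regions, CXCL12, CXCL1 and CXCL8 thus lay within 1.5-fold of the I79 old column. From coding and noncoding reads of the ICM libraries only, set against whole I79 young counts, the ratios of CXCL8 and CXCL12 were lower, as given below.

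CXCL3 stood out among the low members. It had 94.5 and 129.3 reads in the ICM libraries, 8.88-fold above I79 young and 13.2-fold above I79 old. CXCL2 had 21 and 30.8 reads, 2.12-fold above young and 5.64-fold above old. CXCL16 had 45.2 and 48 reads, 2.59-fold and 4.76-fold above. CXCL5 had 18.5 and 24.5 reads, 1.77-fold and 3.07-fold above. CXCL14 had 2 and 6 reads.

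Counted over the 8 members against I79 young, 3 were past 0.6 lower, against 31.5% of 14258 genes, and 5 higher, against 27.6%. Against I79 old, 1 was lower (CXCL6), against 27.5%, and 4 were higher (CXCL2, CXCL3, CXCL5 and CXCL16), against 31.3%. The same ratio of the WT libraries to I79 young, which holds the difference in state markers given above as well as the counting, had 1 member lower (CXCL12), against 23.5%, and 7 higher, against 21.6%. CXCL8 was 212-fold higher in WT than in I79 young, CXCL5 91.4-fold, CXCL3 29.8-fold, CXCL1 18.8-fold and CXCL2 15.3-fold, and CXCL12 was 28.4-fold lower. For CXCL2, CXCL3, CXCL5, CXCL8 and CXCL12 the direction depended on the control. Against WT instead of I79 young, the ICM libraries were 73.4-fold lower for CXCL8 and 3.36-fold lower for CXCL3, and 2.06-fold higher for CXCL12.

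**Figure D5:**
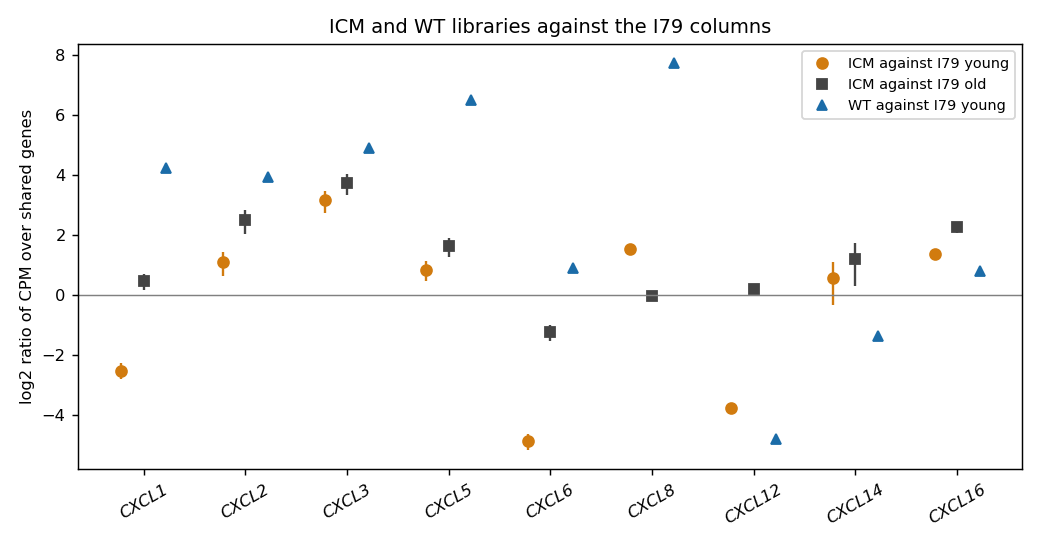
Log2 ratio of CPM over shared genes (y axis) for each CXC chemokine (x axis), with ICM against I79 young (orange circles), ICM against I79 old (grey squares) and WT against I79 young (blue triangles); bars span the ratios of the 2 ICM libraries. CXCL3 lies above 0 in all 3 comparisons, CXCL12 is below I79 young in ICM and WT, and the WT values of the ELR genes are above those of ICM.

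The ICM table splits reads by transcript region, and these genes differed in where their reads lay. In CXCL12, 68.6% and 64.5% of the reads were in the 3′ untranslated region, in CXCL8 51.8% and 40.6%, and in CXCL3 14.8% and 14.7%, against 25.3% and 24.2% over all genes. In CXCL3, 32.8% and 43.7% were in the 5′ untranslated region, against 10.4% and 10.6% over all genes. From coding and noncoding reads only, the log2 ratio to I79 young was 0.44 for CXCL8 and -4.82 for CXCL12, and that of CXCL5 turned from 0.82 to -0.55. Only the ICM reads could be restricted in this way, since the I79 columns are not split by region. These ratios thus set a part of the ICM reads against whole I79 counts and are not like for like.

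Genes of the same system were read from lists. Of 8 other CXC ligands, 2 were tested after knockdown, CXCL10 (log2 fold change 0.17, adjusted p 0.79) and PF4V1. In old against young 1 was tested, CXCL10, an interferon-induced ligand of CXCR3, which passed the filter through the old columns alone. It had 3 counts in I79 young and 351 in I79 old, a ratio of 99.2 (33.7 to 483), and 1 and 18 counts in I10, a ratio of 19.1 (3.01 to 795; adjusted p 0.0046 by edgeR). It had 0 and 1 reads in the ICM libraries.

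Of 8 receptors, CXCR5 and ACKR3 passed the filter after knockdown (log2 fold changes -0.12 and -1.25, adjusted p 0.91 and 0.30), and CXCR1 and CXCR2, the receptors of the ELR ligands, did not. ACKR3, the scavenger receptor of CXCL12, was the 1 receptor tested in old against young. It passed the filter through the old columns alone, so that being tested already implied a higher level there. It had 0 counts in both young columns, 318 in I79 old and 80 in I10 old, at least 89.8-fold and 28.3-fold higher (adjusted p 0.0046 by edgeR). The summed level of the endothelial markers listed in these columns was also higher in old. It was 7.22 against 0.628 CPM in I79 and 2.54 against 0.365 CPM in I10, with CDH5 at 0 in all 4 columns. VWF was the 1 endothelial marker tested in old against young (log2 fold change 2.69, adjusted p 0.013 by edgeR), and it was not called. The part of these markers in the results above was not tested.

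Of 9 proteases that trim or shed these chemokines, 8 were tested in each comparison. After knockdown MMP3 and the collagenase MMP1 (782 and 431, then 282 and 218 CPM) fell, by 1.88 and 1.28 on the log2 scale (adjusted p 0.0092 and 0.0024 by edgeR), and the membrane-bound MMP14 rose by 0.90 (adjusted p 0.0027). In old against young ADAM10, the sheddase of CXCL16, rose by 1.18 (adjusted p 0.0056), and the peptidase MME by 2.43 (adjusted p 0.0088).

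Of 18 genes that induce or restrain the ELR chemokines, 16 were tested in each comparison. After knockdown 2 fell: the transcription factor CEBPB (769 and 580.1 CPM in WT, 385 and 393 in HMGB2 KD; log2 fold change -0.79, adjusted p 0.0052 by edgeR) and the interleukin 1 receptor IL1R1 (658 and 645 CPM, then 443 and 321; -0.77, adjusted p 0.0077). In old against young IL1R1 fell by 1.59 (adjusted p 0.0083) and NFKB2, an NF-kB subunit, rose by 1.23 (adjusted p 0.0082). IL1R1 was the 1 gene of this list called in both comparisons. IL1B, which was called in neither, had log2 fold changes of -1.19 after knockdown (adjusted p 0.025 by edgeR) and -2.69 in old against young (adjusted p 0.054), and IL1A had -1.13 and -1.88 (adjusted p 0.046 and 0.12). RELB, also called in neither, had 0.14 and 4.34 (adjusted p 0.65 and 0.030 by edgeR). It had 0 and 13.2 counts in I79 and I10 young, against 193 and 92.9 in old. Over the 16 tested the median log2 fold change was -0.36 after knockdown and 0.35 in old against young.

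Among 12 CC and CX3C chemokines, 6 were tested after knockdown and CCL20 fell (log2 fold change -2.55, adjusted p 0.0062 by edgeR). In old against young 3 were tested and CCL2, a monocyte attractant, rose by 2.58 (adjusted p 0.0032), from 14.0 to 89.8 CPM (I79) and from 25.3 to 141 CPM (I10). CCL2 thus rose in the isolate in which CXCL8 was higher in old and in the isolate in which it was lower. Of the 9 fibroblast markers 3 rose and 1 fell after knockdown, and 1 rose in old against young.

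Patterns were compared with CXCL8 over the 8 columns of WT, HMGB2 KD, old and young, on log2 CPM centred within each kind of table. These columns share isolates and tables, so the coefficients are descriptions. Among the members, Pearson's r with CXCL8 was 0.78 for CXCL5, 0.76 for CXCL3, 0.65 for CXCL2, 0.43 for CXCL1, 0.25 for CXCL16, 0.07 for CXCL6 and -0.18 for CXCL12. The pooled values hide a difference between the tables. In the 4 WT and HMGB2 KD libraries r was 0.999 for CXCL1 and 0.99 for CXCL2, and in the 4 old and young columns it was 0.23 and 0.44. Of 12775 genes, those most like CXCL8 were AKAP1 (0.99), ESF1 (0.95), AREG (0.95), NOB1 (0.94) and RPS4X (0.94). None of them is a chemokine, and AREG encodes amphiregulin, a ligand of the EGF receptor.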

How the data were processed

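Poly(A)-selected RNA of IMR90 cells had been sequenced by the authors. The methods describe TruSeq libraries, and other poly(A) libraries matched to ribosome profiling. They do not say which kind the ICM libraries were. The study's notes name STAR 2.6.0c, featureCounts and GRCh37. The authors deposited WT and HMGB2 KD as raw counts, 1 value per gene and library; the files end in htseq-type summary rows (16.9% to 18.0% of the totals, left out), unlike featureCounts output, so which counter made them is unclear, and the strand setting is not given in the sources used here. For the old and young groups they deposited salmon-type estimated counts and TPM per transcript, 1 column per group although the labels list 2 replicates, treated as the authors' pooled value. The ICM files, deposited by the authors too, give fractional estimated counts by gene and transcript region.

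Estimated counts were summed per gene through GENCODE v44lift37 (97.7% of transcripts matched) and rounded. Genes were tested with edgeR 4.0.16 (R 4.3.3; TMM, filterByExpr, quasi-likelihood, Benjamini-Hochberg), checked on simulated data. Standard errors are the log2 fold change over the square root of F. Log2 ratios within isolates given in the text, and ratios between tables, used a prior count of 2. Fold differences within isolates, ratios given with a counting interval and the 3-count limits used no prior count. Length scaling used mean transcript lengths. Intervals are exact Clopper-Pearson, and these and the 3-count limits cover counting error only. All 9 members were named. Of other lists the called members were named, at most 4, and some that were not called. Members and lists were chosen with earlier results of these data known. Alternatives used DESeq2 1.42.0 and 1 RUVs-type factor. The authors' columns of their own comparisons were not used.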

Additional observations from a re-analysis of the deposited data

Results flagged for a closer look

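CXCL8 differed between the isolates in its change from young to old. The log2 ratio of old over young was 1.74 in I79 and -1.04 in I10, a difference of 2.79 (I79 minus I10). With 1 column per group, taken as pooled, the difference was not tested against replicate error. The counting intervals of the ratios, 2.67 to 4.36 in I79 and 0.323 to 0.687 in I10, did not overlap.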

How the results depend on the processing

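With HMGB2 KD against WT, leaving out 1 library at a time gave 312 to 999 genes called (174 to 544 higher, 138 to 455 lower) and 0 to 5 CXC chemokines. The lowest values came without HMGB2 KD replicate 2, and 5 members (CXCL1, CXCL2, CXCL3, CXCL5 and CXCL8) were called without WT replicate 2 and without HMGB2 KD replicate 1. CXCL6 ranged from -0.23 to 0.93 on the log2 scale and was negative without WT replicate 2 (-0.23) and without HMGB2 KD replicate 1 (-0.21). DESeq2's Wald test called 0 members, and no filter on low counts or 1 RUVs-type factor called 5. An adjusted p under 0.05 gave 659 genes higher. With the replicate number as a block, 1243 genes (685 higher, 558 lower) and 5 members were called, and all 797 calls without the block were among them. Deviations of equal numbers correlated at 0.12 over 2 pairs, which does not show that the numbers pair the samples.

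Old against young gave 3130 genes (2111 lower) with library totals, 4251 (2209 higher, 2042 lower) with no filter and 3860 (2037 higher, 1823 lower) with an adjusted p under 0.05. With length-scaled counts CXCL16 changed sign, from -0.50 to 0.0047. For ICM against I79 young, coding and noncoding ICM reads only, set against whole I79 counts, gave 2 members higher, and CXCL5 became -0.55. With WT as control 6 were lower and 2 higher, and log2 ratios changed sign for CXCL2 (-2.85), CXCL3 (-1.75), CXCL5 (-5.69), CXCL8 (-6.20) and CXCL12 (1.04). The median r of the 5 genes most like CXCL8 was 0.98 in the WT and HMGB2 KD libraries and 0.99 in the old and young columns, against 0.95. The causes were not tested.

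Depth limits the old and young columns: CXCL2, CXCL3, CXCL5, CXCL14 and CXCL16 had at most 21 counts there, and the 1 residual degree of freedom rests on 2 isolates. CXCL6 and CXCL14 had at most 6 reads in an ICM library.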

Other observations

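CXCL11 and CXCR4, named after their values were seen, were below the filter of the old against young test. CXCL11, a ligand of CXCR3, had 0 counts in I79 young, 13 in I79 old and 0 in both I10 columns. CXCR4, the signalling receptor of CXCL12, had 0 counts in both young columns, 9 in I79 old and 1 in I10 old. Both were at 8 counts or fewer in each WT and HMGB2 KD library.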
